A study of Mus musculus with 59 samples.

Results

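Expression of 10 genes that cut, protect or cross-link the extracellular matrix was followed across skeletal muscle of melanoma-bearing mice: the matrix metalloproteinases Mmp2, Mmp3, Mmp9 and Mmp14, the tissue inhibitors of metalloproteinases Timp1, Timp2, Timp3 and Timp4, and the lysyl oxidases Lox and Loxl1. The genes were chosen by name from these 3 families, and they are 10 of the 47643 gene symbols in the deposited table. The table holds RNA-seq values for 59 muscle samples of female athymic nude mice (strain NCI Ath/nude), 4 months of age, which fall into 8 groups. All mice carried a human patient-derived melanoma xenograft, either a melanoma that causes muscle wasting (cachectic) or a melanoma that does not (non-cachectic). Each of the 2 melanomas was 1 xenograft, so that cachexia and any other difference between the 2 tumors cannot be told apart, and tumor-free muscle was not analysed here. Mice that gave diaphragm had received intraperitoneal injections of recombinant Fibcd1 (rFibcd1), a protein with a fibrinogen C domain, or of mock solution (PBS with BSA). There were 10 diaphragm samples of each treatment with the cachectic melanoma, and 9 mock and 10 rFibcd1 samples with the non-cachectic melanoma. Tibialis anterior (TA) and soleus were taken without any rFibcd1, with 5 samples of each muscle for either melanoma. The labels do not say which libraries share a mouse, but 5 column numbers per melanoma (6 to 10 and 61 to 65) recur in all 3 muscles without rFibcd1. Nude mice lack a thymus and hence most T cells, while their neutrophils and macrophages remain.

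Matrix metalloproteinases are zinc enzymes that are made as inactive precursors and cleave collagens, elastin, proteoglycans and other matrix proteins. Mmp14 sits in the cell membrane, cleaves fibrillar collagen and, together with Timp2, activates the Mmp2 precursor. Mmp2 and Mmp9 are gelatinases, the first made mainly by fibroblasts and other stromal cells and the second abundant in neutrophils and macrophages, and Mmp3 (stromelysin) cleaves a broad range of matrix proteins and activates other metalloproteinase precursors. TIMPs bind metalloproteinases and block the active site. Timp1 is an inducible, secreted inhibitor, Timp2 is made constitutively in many tissues, Timp3 is held in the matrix and also inhibits ADAM proteases, and Timp4 is the family member with the most restricted expression, including heart and muscle. Lysyl oxidases strengthen the matrix: Lox cross-links collagen and elastin, and Loxl1 is needed for the maintenance of elastic fibers.

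Of the 10 genes, 6 matched an entry of the promoter table of RefSeq (GRCm38.p6): Mmp3, Mmp14, Timp1, Timp2, Timp3 and Timp4. The 250 bases before the transcription start are shown for the 3 genes among them that were called higher in the cachectic diaphragm (Mmp3, Mmp14 and Timp4) and for Timp1, whose range between libraries was the widest. Capitals mark matches, on either strand, to a TATA box (TATAAA), an AP-1 element (TGANTCA), an E-box (CAGCTG) or a GC box (GGGCGG).
Timp4 (chr6:115252206-115252455, minus strand): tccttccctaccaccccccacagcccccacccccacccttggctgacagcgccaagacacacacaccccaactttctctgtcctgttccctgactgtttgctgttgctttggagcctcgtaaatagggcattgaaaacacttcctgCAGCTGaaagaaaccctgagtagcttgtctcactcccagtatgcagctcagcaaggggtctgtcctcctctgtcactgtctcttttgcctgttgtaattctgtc
Mmp3 (chr9:7445572-7445821, plus strand): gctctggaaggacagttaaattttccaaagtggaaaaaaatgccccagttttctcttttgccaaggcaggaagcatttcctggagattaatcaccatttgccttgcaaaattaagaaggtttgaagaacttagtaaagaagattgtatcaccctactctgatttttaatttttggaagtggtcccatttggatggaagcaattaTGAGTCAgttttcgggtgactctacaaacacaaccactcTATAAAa
Mmp14 (chr14:54431348-54431597, plus strand): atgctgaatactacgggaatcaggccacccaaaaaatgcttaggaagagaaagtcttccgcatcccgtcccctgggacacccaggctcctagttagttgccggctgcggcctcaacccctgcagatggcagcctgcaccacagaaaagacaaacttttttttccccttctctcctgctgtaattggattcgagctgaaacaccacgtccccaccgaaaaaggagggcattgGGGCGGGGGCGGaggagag
Timp1 (chrX:20869916-20870165, plus strand): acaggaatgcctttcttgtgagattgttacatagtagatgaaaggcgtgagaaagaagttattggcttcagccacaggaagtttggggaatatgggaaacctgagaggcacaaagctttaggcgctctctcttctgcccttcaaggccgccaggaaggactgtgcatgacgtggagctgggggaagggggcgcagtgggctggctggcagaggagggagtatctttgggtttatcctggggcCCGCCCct
Only Mmp3, among these 6 windows, held a TATA box or an AP-1 element. Its AP-1 match lay 46 to 40 bases before the start and its TATA match 7 to 2 bases before it, whereas 6.75% and 12.4% of all 32851 windows of the same length held these motifs. Timp4 held an E-box 104 to 99 bases before the start, a motif found in 13% of all windows. Mmp14 held 2 adjoining GC boxes and Timp1 held 1, with a GC box in 32.7% of all windows. These matches describe the letters of the reference and are not evidence of binding.

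The other genes lie at chr8:92827291-92853420 (Mmp2, plus strand), chr2:164940780-164955850 (Mmp9, plus strand), chr11:118301069-118355740 (Timp2, minus strand), chr10:86300372-86349506 (Timp3, plus strand), chr18:52516067-52529867 (Lox, minus strand) and chr9:58287738-58313186 (Loxl1, minus strand) of GRCm38 in the GENCODE annotation, each as a protein-coding gene.

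Expression is given in TPM (transcripts normalized for length and library total), which sums to 1000000 in every library, so that sequencing depth is unknown. Genes above 0 numbered 17950 to 19456 in diaphragm, 16436 to 17673 in TA and 17514 to 18191 in soleus libraries. The labelled muscles carried their own myosins: Myh4 had a median of 12271 TPM in TA and 28.0 TPM in soleus, and Myh7 a median of 5514 TPM in soleus and 1.02 TPM in TA. One cachectic soleus library, numbered 7, stood apart with 4989 TPM of the fast myosin Myh4, and the soleus calls of Timp4 and Mmp2 are given without it. Leaving it out changed the soleus call of none of the 9 members tested. The pseudogene Pcna-ps2 was either at 5 TPM or more, or below 1 TPM, in every library. It was in the high state in all 5 cachectic and no non-cachectic library of each limb muscle, so that this state and the melanoma cannot be told apart there, whereas in the diaphragm it was high in 9 of 10 cachectic mock, 8 of 10 cachectic rFibcd1, 3 of 9 non-cachectic mock and 6 of 10 non-cachectic rFibcd1 libraries. Markers of other cells also moved with the melanoma, and their values are given beside the results.

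Fold changes below are log2 fold changes of TPM + 1 with the standard error (SE) of the limma fit, and a gene was called when its p-value, adjusted over all genes tested, was under 0.05. In whole muscle, a lower level in each cell of a type cannot be told apart from fewer cells of that type.

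Most of the 10 genes differed in level between muscles, but Timp4 and Mmp3 were called in no comparison of muscles as deposited. With the non-cachectic melanoma and no rFibcd1, the inhibitors Timp2 and Timp3 and the gelatinase Mmp2 were the most abundant members in every muscle. In the diaphragm (n = 9), Timp2 averaged 89.5 ± 20.3 TPM (SD), Timp3 74.1 ± 15.3 TPM and Mmp2 58.9 ± 10.6 TPM, ranges that overlap. In soleus (n = 5) the order was Mmp2 at 67.0 ± 6.57 TPM (SD), Timp2 at 58.9 ± 6.65 TPM and Timp3 at 55.9 ± 5.72 TPM, again with overlapping ranges. In TA (n = 5) it was Timp3 at 31.4 ± 4.95 TPM (SD), Timp2 at 25.5 ± 1.85 TPM and Mmp2 at 16.8 ± 3.00 TPM, and there the highest Mmp2 library (20.3 TPM) lay below the lowest Timp2 library (22.4 TPM). Loxl1 averaged 18.0 ± 3.69 TPM in diaphragm, 10.5 ± 1.45 TPM in soleus and 3.54 ± 0.510 TPM in TA (SD). Timp4 was the member with the most even level, at 9.59 ± 2.24, 10.1 ± 1.91 and 8.90 ± 1.94 TPM in diaphragm, soleus and TA (SD). Mmp3 and Mmp9 were rare, with averages of 0.832 ± 0.823 and 1.76 ± 1.13 TPM (SD) in diaphragm and at most 0.837 TPM on average in the limb muscles.

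Of the 10 members, 8 were higher in diaphragm than in TA and 0 were lower, where 64% of all genes tested were called higher. These were Mmp2, Mmp9, Mmp14, Timp1, Timp2, Timp3, Lox and Loxl1, and the fold change was largest for Timp1 (2.10 ± 0.32) and Loxl1 (2.05 ± 0.22). The call of Lox (0.64 ± 0.29, adjusted p = 0.0492) was the weakest of them, and after scaling each library to the median ratio over genes it was 0.26 with adjusted p = 0.349. Leaving out each of the 39 libraries of that fit in turn kept the call of Lox for 14 of them (highest adjusted p 0.104, without non-cachectic TA library 63). Between TA and soleus, 7 members were lower in TA and 0 were higher, beside 63.9% of all genes called lower in TA: Mmp2, Mmp14, Timp1, Timp2, Timp3, Lox and Loxl1. For these 7 genes the ranges of the 2 muscles did not overlap, beside 65.9% of all genes tested that lay lower in TA with no overlap. Diaphragm and soleus were closer, with 3 members higher in diaphragm (Mmp9, Timp2 and Loxl1, by 1.23 ± 0.31, 0.57 ± 0.18 and 0.72 ± 0.22) beside 16.8% of all genes called higher. Timp4 was called in no comparison between muscles, and its fold change was 0.09 ± 0.23 between diaphragm and TA, with a 95% interval of -0.38 to 0.57. TPM of all genes moved between muscles: of the genes called between diaphragm and TA, 88.3% were higher in diaphragm as deposited and 48.2% after scaling, and of those called between TA and soleus, 8.1% were higher in TA as deposited and 53.2% after scaling. The scaled fits called 7, 6 and 5 members in place of 8, 7 and 3, and with the column number as a block 9 members were called between diaphragm and TA (Mmp3 in addition), 8 between TA and soleus (Mmp3 in addition) and 6 between diaphragm and soleus (Mmp14 and Timp3 in addition, higher in diaphragm by 0.60 and 0.44, and Lox, lower in diaphragm at -0.67). Over all genes the block raised the calls as well, from 9790 to 10059, from 9385 to 10349 and from 5243 to 6487, and scaling gave 9529, 7197 and 6336. With no filter on low values the call of Lox between diaphragm and TA was lost (adjusted p = 0.0768). Markers of other cells moved with these levels: 7 of 7 fibroblast, 6 of 6 macrophage, 4 of 4 endothelial, 4 of 4 adipocyte and 4 of 4 mesothelial markers were called higher in diaphragm than in TA, and 7 of 7 fibroblast, 6 of 6 macrophage and 8 of 8 tendon markers lower in TA than in soleus. Between diaphragm and soleus, 5 of 7 fibroblast, 5 of 6 macrophage and 4 of 4 mesothelial markers were higher, and 1 fibroblast marker (Col1a2) and 8 of 8 tendon markers lower in diaphragm, where 22.1% of all genes were called lower. Fibroblast markers summed to 810 to 1258 TPM in diaphragm, 640 to 879 TPM in soleus and 161 to 305 TPM in TA. Adipocyte markers summed to 5.38 to 13.7 TPM in TA and 65.1 to 209 TPM in soleus, and endothelial markers to 81.2 to 111 and 141 to 181 TPM. Their part in the levels was not tested.

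**Figure D1:**
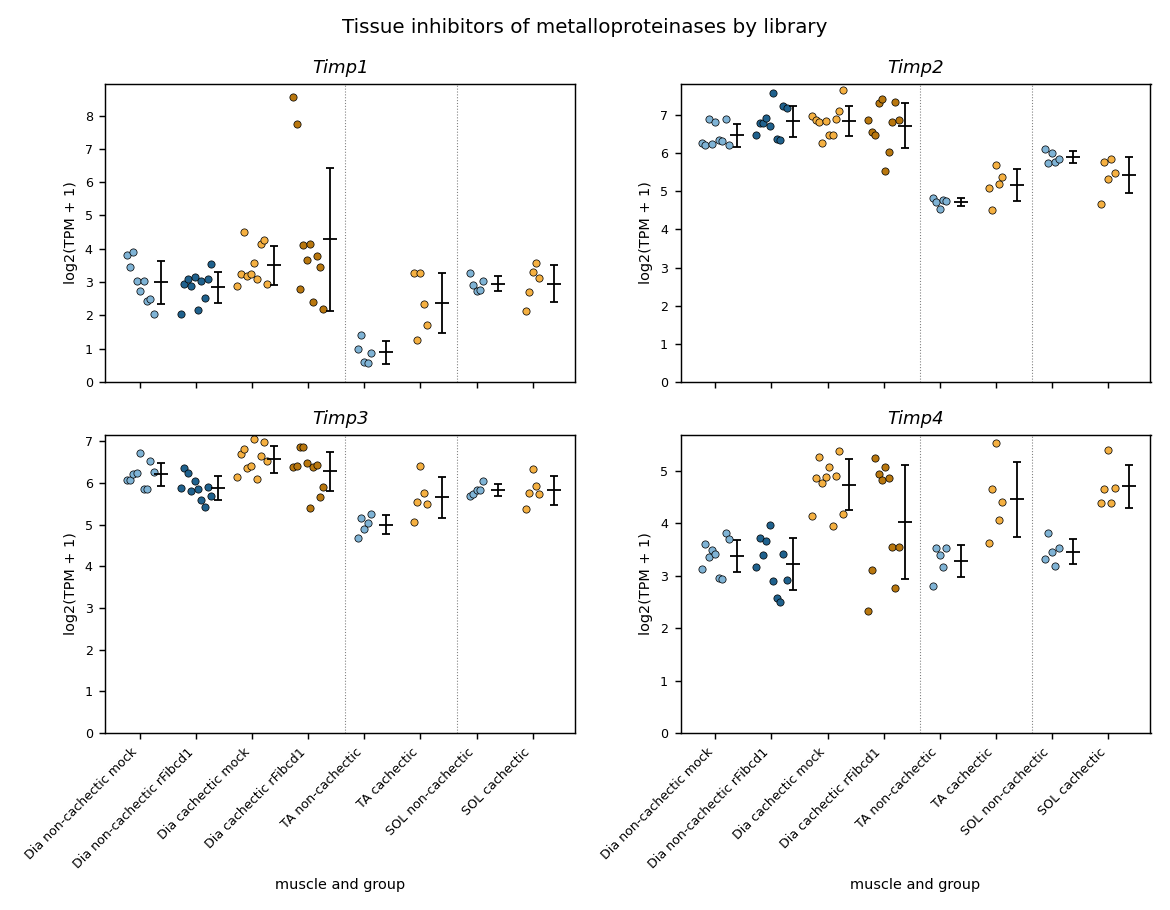
Levels of the 4 TIMPs in log2(TPM + 1) (vertical axes) by muscle and group (horizontal axis; Dia, diaphragm; TA, tibialis anterior; SOL, soleus). Each point is 1 library and the bar beside it is the group mean with SD. Timp4 of the cachectic mock diaphragm, cachectic TA and cachectic soleus libraries lies above that of every non-cachectic mock, TA or soleus library of the muscle, and Timp1 of 2 cachectic rFibcd1 diaphragm libraries lies far above all others.

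Timp4 was the inhibitor that differed between the melanomas in all 3 muscles. In the mock-treated diaphragm, Timp4 ranged from 14.3 to 40.7 TPM (median 28.2 TPM, n = 10) with the cachectic melanoma and from 6.65 to 13.04 TPM (median 9.69 TPM, n = 9) with the non-cachectic melanoma. Each cachectic library was thus above each non-cachectic library, which held for 4.07% of all genes tested there, 49.1% in TA and 14.6% in soleus. The fold change was 1.36 ± 0.30 (adjusted p = 0.000861), and it was 1.32 with adjusted p = 0.00653 when the Pcna-ps2 state was a term of the fit. In TA, Timp4 was at 11.3, 24.3, 45.2, 15.7 and 20.3 TPM in the cachectic and at 5.99, 10.5, 9.56, 7.91 and 10.6 TPM in the non-cachectic libraries. The groups did not overlap, although the lowest cachectic library was near the highest non-cachectic libraries, and the fold change was 1.18 ± 0.29 (adjusted p = 0.00779). In soleus, Timp4 was at 19.9, 24.3, 41.3, 19.8 and 24.5 TPM in the cachectic and at 8.94, 13.1, 9.97, 8.06 and 10.5 TPM in the non-cachectic libraries, which did not overlap. The fold change was 1.24 ± 0.19 (adjusted p = 0.00121), and 1.25 with adjusted p = 0.00352 without the soleus library of high Myh4. After median-ratio scaling the Timp4 fold changes were 1.15, 0.71 and 1.15 in diaphragm, TA and soleus, all still called, and the call held on leaving out any 1 library. The effect on Timp4 was 0.19 ± 0.33 larger in diaphragm than in TA and 0.12 ± 0.33 larger than in soleus, with 95% intervals of -0.48 to 0.85 and -0.55 to 0.79, so that no difference between muscles was detected.

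Timp1, the inducible inhibitor, was called only in TA. Its level in TA was 8.75, 1.40, 8.70, 4.03 and 2.28 TPM with the cachectic and 0.976, 1.68, 0.512, 0.491 and 0.822 TPM with the non-cachectic melanoma. All cachectic libraries but 1 were above the non-cachectic range, and the fold change was 1.49 ± 0.36 (adjusted p = 0.00715). In the mock-treated diaphragm Timp1 ranged from 6.41 to 21.8 TPM (median 8.40 TPM) with the cachectic and from 3.09 to 13.9 TPM (median 7.14 TPM) with the non-cachectic melanoma, groups that overlap widely. The fold change was 0.51 ± 0.53 (adjusted p = 0.453). In soleus the levels were 3.34, 5.46, 8.79, 10.9 and 7.67 TPM against 8.76, 6.60, 5.60, 5.86 and 7.23 TPM, with a fold change of 0.01 ± 0.24 (adjusted p = 0.985). The cachectic range in soleus enclosed the non-cachectic range.

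Timp2 and Timp3, the abundant inhibitors, moved less than Timp4. In TA, Timp3 was at 32.5, 45.3, 84.4, 53.0 and 44.5 TPM in the cachectic and at 24.5, 34.7, 28.8, 32.0 and 37.0 TPM in the non-cachectic libraries. Library 8 of the cachectic TA group was the highest and 1 cachectic library lay within the non-cachectic range, with a fold change of 0.65 ± 0.21 (adjusted p = 0.0219). Timp2 in TA was at 32.8, 21.9, 50.2, 35.6 and 40.4 TPM against 27.1, 25.5, 22.4, 26.5 and 25.9 TPM, with a fold change of 0.45 ± 0.18 (adjusted p = 0.0474). The call of Timp2 was lost on leaving out any of 9 of the 10 TA libraries (adjusted p 0.0535 to 0.104), cachectic library 7 being the exception, and with Dunn tests (adjusted p = 0.147), and that of Timp3 only without non-cachectic library 61 (0.57, adjusted p = 0.0548). In a fit with no filter on low values Timp2 was not called in TA (adjusted p = 0.0786). After median-ratio scaling neither was called in TA, where Timp3 had a fold change of 0.16 (adjusted p = 0.309) and Timp2 one of -0.04 (adjusted p = 0.796). In soleus, Timp2 had the opposite sign to that in TA as deposited, but not after scaling, with 24.3, 53.0, 38.9, 57.0 and 43.8 TPM in the cachectic and 68.5, 52.6, 62.6, 53.6 and 56.9 TPM in the non-cachectic libraries. Its fold change of -0.48 ± 0.19 was not called as deposited (adjusted p = 0.0899) and was called after scaling (-0.57, adjusted p = 0.0325) and without cachectic library 9 (-0.59, adjusted p = 0.0453), and it was -0.29 (adjusted p = 0.0983) without cachectic library 6. In the mock-treated diaphragm neither passed the test, with fold changes of 0.37 ± 0.20 for Timp2 (adjusted p = 0.139) and 0.36 ± 0.16 for Timp3 (adjusted p = 0.0715). Timp3 was called there without cachectic rFibcd1 library 11, cachectic mock library 6 or 22, or non-cachectic mock library 65 (adjusted p 0.0365 to 0.0468), and in a fit of the 2 mock groups alone (adjusted p = 0.0301), where the calls over all genes rose from 4501 to 6298.

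In the mock-treated diaphragm the sum of the 4 TIMPs averaged 181 ± 33.6 TPM with the non-cachectic (SD, n = 9) and 252 ± 48.1 TPM with the cachectic melanoma (SD, n = 10). It was 66.7 ± 6.81 and 117 ± 41.4 TPM in TA (SD, n = 5 each) and 132 ± 7.49 and 134 ± 29.8 TPM in soleus (SD, n = 5 each). Timp4 took 5.35% ± 1.17 of this sum in the non-cachectic and 10.7% ± 2.77 in the cachectic mock diaphragm (SD), 13.3% ± 2.19 and 19.4% ± 5.66 in TA, and 7.71% ± 1.64 and 19.5% ± 4.28 in soleus. In soleus the mean totals were close to each other while the make-up differed, with Timp2 at 44.6% ± 3.75 of the sum in the non-cachectic and 32.5% ± 7.02 in the cachectic group (SD). The ratio of the summed TIMPs to the summed 4 metalloproteinases, as TPM of mRNA, was 1.78 ± 0.13 in non-cachectic and 2.82 ± 0.86 in cachectic soleus (SD), 3.49 ± 0.60 and 3.26 ± 0.58 in TA, and 2.58 ± 0.47 and 3.01 ± 0.46 in the mock-treated diaphragm. These sums, shares and ratios were not tested.

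**Figure D2:**
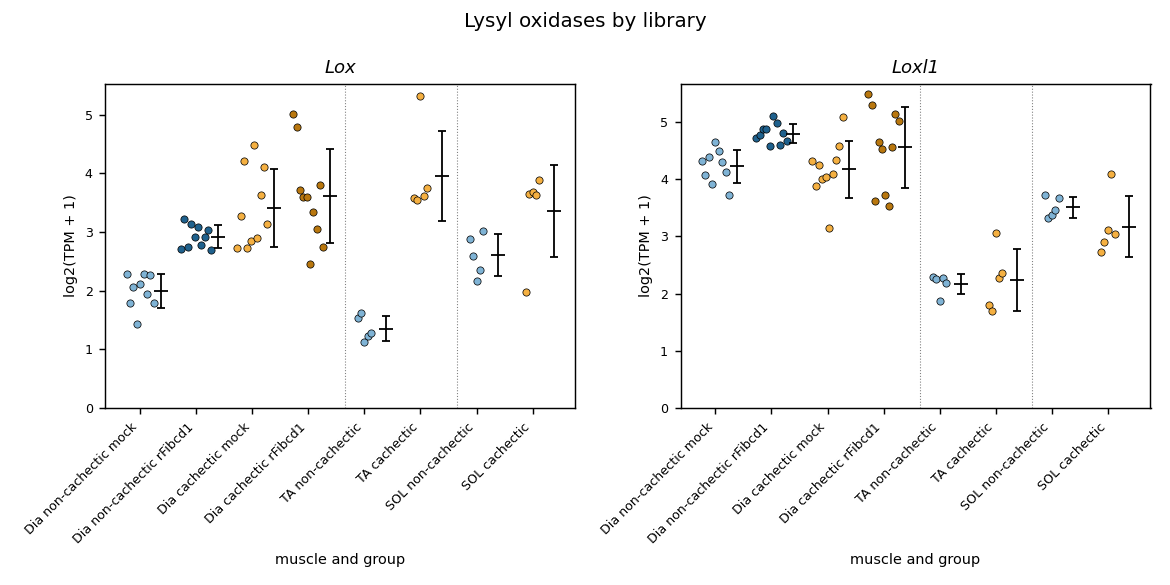
Levels of Lox and Loxl1 in log2(TPM + 1) (vertical axes) by muscle and group (horizontal axis; Dia, diaphragm; TA, tibialis anterior; SOL, soleus), with 1 point for each library and the group mean with SD beside it. Lox of every cachectic library lies above that of every non-cachectic library in the mock-treated diaphragm and in TA, and 4 of 5 cachectic soleus libraries lie above the non-cachectic range.

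Lox had the largest fold change between the melanomas of all 10 members in the mock-treated diaphragm, where that of Timp4 was within 1 SE of it, and of the 8 members that passed the filter in TA. This order holds for log2(TPM + 1), which understates changes of rare genes such as Mmp3. With the Pcna-ps2 state as a term, the fold change of Timp4 in the diaphragm exceeded that of Lox. In the diaphragm Lox ranged from 5.63 to 21.3 TPM (median 8.24 TPM) with the cachectic and from 1.70 to 3.89 TPM (median 3.17 TPM) with the non-cachectic melanoma. The groups did not overlap, and the fold change was 1.41 ± 0.25 (adjusted p = 0.000111). It was 1.22 (adjusted p = 0.000281) after median-ratio scaling and 1.18 (adjusted p = 0.0029) with the Pcna-ps2 state as a term. In TA, Lox was at 10.9, 10.6, 38.9, 11.2 and 12.4 TPM in the cachectic and at 1.89, 2.08, 1.17, 1.33 and 1.42 TPM in the non-cachectic libraries. The 4 cachectic libraries other than library 8 were close to each other and all were over 5 times the highest non-cachectic library. The fold change in TA was 2.60 ± 0.30 (adjusted p = 0.000149), and 2.26 (adjusted p = 5.2e-07) without library 8. In soleus, Lox was at 2.93, 11.5, 11.7, 11.3 and 13.8 TPM in the cachectic and at 6.37, 5.04, 3.50, 4.13 and 7.09 TPM in the non-cachectic libraries. Cachectic library 6 lay below all other soleus libraries and the other 4 above the non-cachectic range, so that the fold change of 0.76 ± 0.33 was not called (adjusted p = 0.108) with library 6 and was 1.10 (adjusted p = 0.00152) without it.

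Loxl1, by contrast, did not pass the test in any muscle. With the cachectic and the non-cachectic melanoma it had medians of 17.0 and 18.8 TPM in the mock-treated diaphragm (ranges 7.91 to 32.9 and 12.2 to 24.0 TPM), and fold changes were -0.05 ± 0.21 in diaphragm, 0.07 ± 0.22 in TA and -0.34 ± 0.22 in soleus (adjusted p = 0.862, 0.8 and 0.287). In soleus it was at 5.61, 6.46, 7.61, 16.1 and 7.19 TPM in the cachectic and at 12.2, 8.98, 9.35, 9.99 and 11.8 TPM in the non-cachectic libraries. Cachectic library 9 was above and the other 4 were below every non-cachectic library, and without library 9 the fold change was -0.57 (adjusted p = 0.00791).

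**Figure D3:**
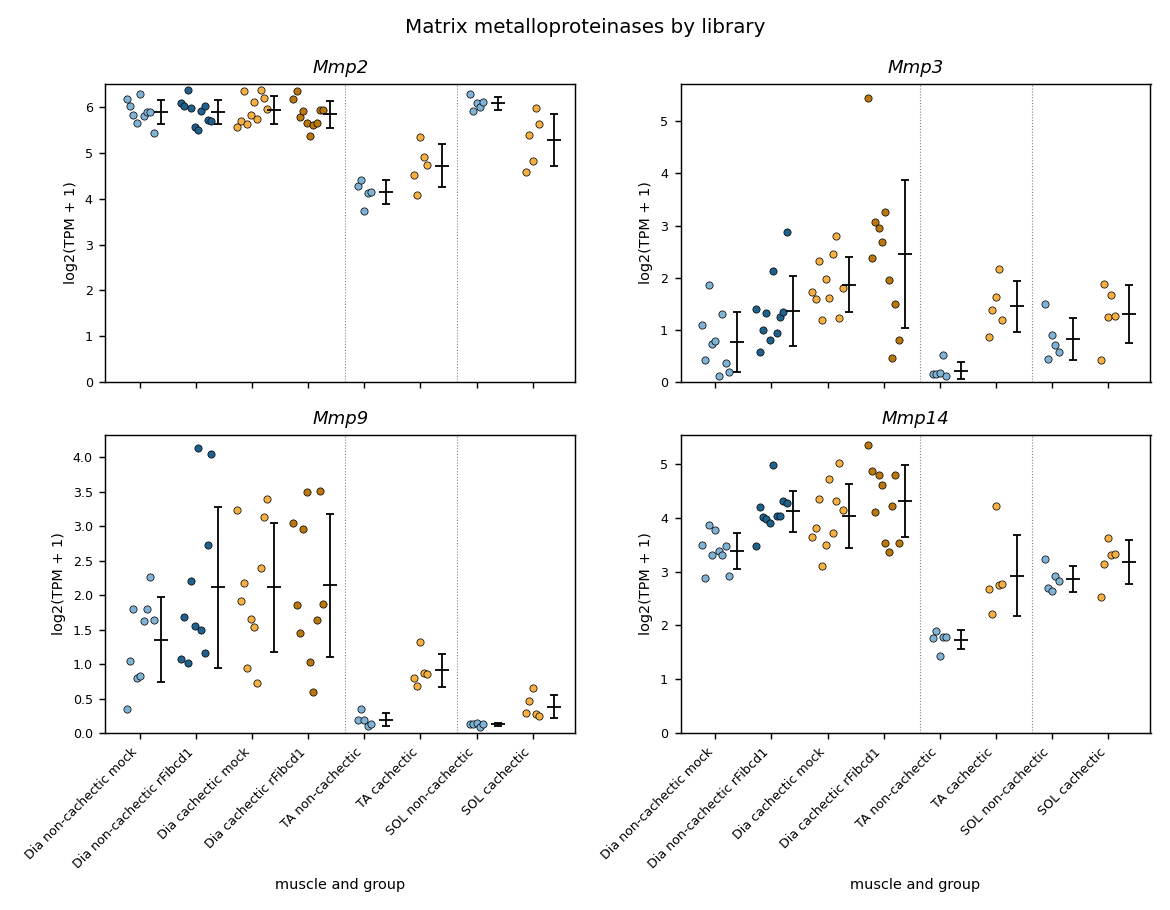
Levels of the 4 matrix metalloproteinases in log2(TPM + 1) (vertical axes) by muscle and group (horizontal axis; Dia, diaphragm; TA, tibialis anterior; SOL, soleus), with 1 point for each library and the group mean with SD beside it. Mmp14 of the 5 cachectic TA libraries lies above that of the 5 non-cachectic TA libraries, and Mmp2 of 4 of 5 cachectic soleus libraries lies below the non-cachectic soleus range.

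Among the proteases, Mmp14, the membrane-bound collagenase, was higher with the cachectic melanoma in diaphragm and TA. In the mock-treated diaphragm it ranged from 7.65 to 31.5 TPM (median 14.9 TPM) against 6.35 to 13.6 TPM (median 9.52 TPM). Of the cachectic libraries 5 of 10 were above the non-cachectic range, and the fold change was 0.66 ± 0.23 (adjusted p = 0.0265). This call was lost after median-ratio scaling (0.45, adjusted p = 0.104) and with the Pcna-ps2 state as a term (0.44, adjusted p = 0.233). It was also lost, with adjusted p between 0.0517 and 0.0621, on leaving out cachectic mock library 20 or 34 or non-cachectic mock library 62 or 70. In TA, Mmp14 was at 5.41, 3.62, 17.6, 5.74 and 5.86 TPM in the cachectic and at 2.38, 2.75, 1.70, 2.46 and 2.47 TPM in the non-cachectic libraries, which did not overlap. The fold change was 1.19 ± 0.30 (adjusted p = 0.00757), and 0.87 (adjusted p = 0.000335) without library 8, the highest. In soleus the levels were 4.74, 7.83, 11.4, 8.88 and 9.01 TPM against 8.45, 5.46, 5.27, 6.55 and 6.12 TPM, overlapping, with a fold change of 0.32 ± 0.19 (adjusted p = 0.234) that was 0.49 (adjusted p = 0.0245) without cachectic library 6 and 0.21 (adjusted p = 0.444) without cachectic library 8.

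Mmp2, the constitutive gelatinase, was called higher in TA and lower in soleus as deposited, and after scaling was called in soleus only. In TA it was at 21.7, 16.0, 39.8, 29.2 and 25.5 TPM in the cachectic and at 18.4, 20.3, 12.2, 16.5 and 16.7 TPM in the non-cachectic libraries. Cachectic library 7 lay within the non-cachectic range and the other 4 above it, and the fold change was 0.58 ± 0.21 (adjusted p = 0.0335). After scaling it was 0.10 (adjusted p = 0.599), and the call was lost on leaving out cachectic library 8, 9 or 10 or non-cachectic library 63, 64 or 65 (adjusted p 0.0517 to 0.0853) and with Dunn tests (adjusted p = 0.1) or no filter on low values (adjusted p = 0.0625). In soleus Mmp2 was at 22.9, 40.8, 27.4, 61.8 and 48.2 TPM in the cachectic and at 76.9, 59.5, 67.2, 62.9 and 68.3 TPM in the non-cachectic libraries. All cachectic libraries but library 9 were below the non-cachectic range, with a fold change of -0.80 ± 0.22 (adjusted p = 0.0233), which was -0.90 (adjusted p = 0.0112) after scaling, and -0.83 (adjusted p = 0.0372) without the library of high Myh4. The call was lost without cachectic library 8 (-0.69, adjusted p = 0.0503) or non-cachectic library 61 (-0.75, adjusted p = 0.0555), and with Dunn tests (adjusted p = 0.0641). In the mock-treated diaphragm the groups had medians of 58.2 and 58.0 TPM and overlapped from end to end (45.9 to 82.0 and 41.9 to 76.4 TPM), with a fold change of 0.06 ± 0.13 and a 95% interval of -0.20 to 0.31.

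The rare proteases Mmp3 and Mmp9 were above the filter in the diaphragm and were tested there. Mmp3 ranged from 1.28 to 5.98 TPM (median 2.39 TPM) in the cachectic and from 0.0866 to 2.64 TPM (median 0.651 TPM) in the non-cachectic mock diaphragm, and the fold change was 1.11 ± 0.39 (adjusted p = 0.0283), which was not called after scaling (1.00, adjusted p = 0.0756). Adjusted p was between 0.0502 and 0.0558 on leaving out cachectic mock library 32 or non-cachectic mock library 62, 66 or 70. Mmp9 ranged from 0.654 to 9.47 TPM (median 3.15 TPM) against 0.279 to 3.82 TPM (median 2.08 TPM), with 4 of 10 cachectic libraries above the non-cachectic range and a fold change of 0.76 ± 0.43 (adjusted p = 0.164). With the Pcna-ps2 state as a term the fold change of Mmp9 was 0.00 (adjusted p = 0.999). In TA neither gene reached 1 TPM in 5 libraries, so that neither passed the filter. Their TA levels did not overlap, however, with Mmp3 at 0.817, 1.62, 2.11, 3.52 and 1.28 TPM and Mmp9 at 0.742, 0.611, 1.51, 0.825 and 0.810 TPM in the cachectic libraries, against at most 0.431 and 0.272 TPM in the non-cachectic libraries. In a fit with no filter both were called, with fold changes of 1.23 ± 0.21 for Mmp3 (adjusted p = 0.00453) and 0.72 ± 0.11 for Mmp9 (adjusted p = 0.00267), while Mmp2 and Timp2 were no longer called, so that the count stayed at 7. In soleus Mmp9 was at most 0.564 TPM in any library and did not pass the filter, and with no filter it was called (0.26 ± 0.07, adjusted p = 0.035). In soleus Mmp3 had a fold change of 0.47 ± 0.27 (adjusted p = 0.218) that was 0.69 (adjusted p = 0.0358) without cachectic library 6.

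Counted together, 4 of 10 members (Mmp3, Mmp14, Timp4 and Lox) were higher and 0 were lower with the cachectic melanoma in the mock-treated diaphragm, beside 30.9% of all genes called higher and 2.67% called lower. The median fold change of the members was 0.59, against 0.20 for all genes tested. In TA, 7 of the 8 members tested were higher (all but Loxl1) and 0 lower, where 56.4% of all genes were called higher, with medians of 0.91 for the members and 0.41 for all genes. In soleus, 1 of 9 members tested was higher (Timp4) and 1 was lower (Mmp2), beside 17.5% of all genes called higher and 7.54% called lower, with medians of 0.01 and 0.09. Of all genes called, 92% were higher in the diaphragm, 93.7% in TA and 70% in soleus as deposited, against 46.6%, 45.3% and 54.2% after median-ratio scaling. After scaling, 2 members remained called in the diaphragm (Timp4 and Lox), 4 in TA (Mmp14, Timp1, Timp4 and Lox) and 3 in soleus (Timp4 higher, Mmp2 and Timp2 lower). The calls over all genes went from 4501 to 2118, from 6680 to 4473 and from 2999 to 3360 with this scaling. With the Pcna-ps2 state as a term, 3 members were called in the mock-treated diaphragm (Mmp3, Timp4 and Lox). The calls over all genes there went from 4501 to 2059.

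**Figure D4:**
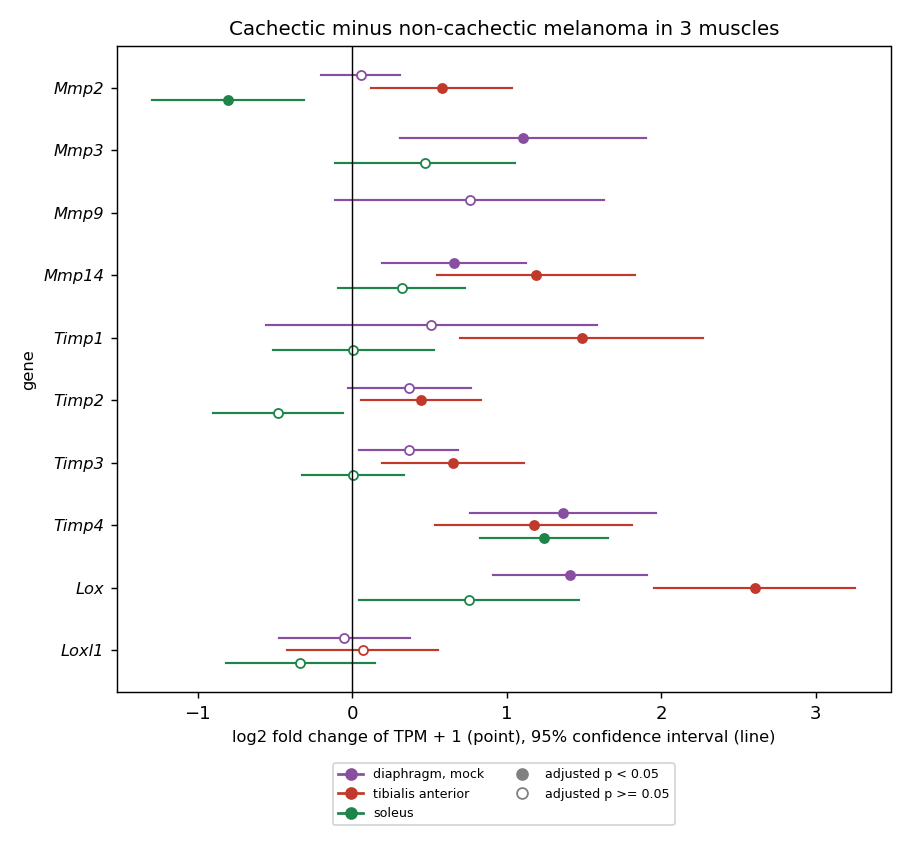
Log2 fold change of TPM + 1, cachectic minus non-cachectic melanoma (horizontal axis), for each gene (vertical axis) in the mock-treated diaphragm, TA and soleus. Points are limma estimates, lines their 95% confidence intervals, and filled points mark adjusted p under 0.05; Mmp3 and Mmp9 have no TA point and Mmp9 has no soleus point because they did not pass the filter on low values. Timp4 lies between 1.18 and 1.36 in all muscles, while Mmp2 is positive in TA and negative in soleus.

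The effect of the melanoma, as a signed fold change, was compared between muscles by testing the difference of the fold changes in a fit of the 6 groups without rFibcd1. Between TA and soleus, 4 members had a larger fold change in TA and 0 in soleus, beside 19.1% of all genes called in that direction. These were Lox (difference 1.85 ± 0.47, adjusted p = 0.00758), Timp1 (1.48 ± 0.51, adjusted p = 0.0384), Mmp2 (1.38 ± 0.30, adjusted p = 0.00191) and Timp2 (0.93 ± 0.30, adjusted p = 0.0269). After median-ratio scaling only Mmp2 (0.99, adjusted p = 0.0101) and Lox (1.62, adjusted p = 0.0072) were called, and the differences of Timp1 and Timp2 lost their calls on leaving out any of 9 and 3 single limb libraries (adjusted p 0.0506 to 0.103 and 0.0503 to 0.0758), TA library 8 among them. No member was called between diaphragm and TA, where 5.04% of all genes were, or between diaphragm and soleus, where 2.52% were, and 2 members each had an unadjusted p under 0.05 there (Timp1 and Lox, and Mmp2 and Timp2), as did 24.4% and 15.8% of all genes. With the column number as a block, 4 members were called between diaphragm and TA (Mmp14, Timp1, Timp3 and Lox), 0 between diaphragm and soleus, and 6 between TA and soleus (Mmp14 and Timp3 in addition). The block also raised the calls over all genes, from 681 to 2193, from 340 to 918 and from 2750 to 5677. With no filter on low values Timp1 lost its call between TA and soleus (adjusted p = 0.0649). Between diaphragm and TA, the difference for Lox was -1.20 ± 0.41 (adjusted p = 0.0788), and it was called without cachectic mock diaphragm library 20, cachectic TA library 6 or cachectic soleus library 6 (adjusted p 0.0381 to 0.0482). Between diaphragm and soleus, the differences were 0.86 ± 0.26 for Mmp2 (adjusted p = 0.0656) and 0.85 ± 0.26 for Timp2 (adjusted p = 0.0696), and at least 1 of them was called without cachectic mock diaphragm library 9, non-cachectic mock diaphragm library 65, cachectic TA library 7 or 8, or cachectic soleus library 9 or 10 (adjusted p 0.0171 to 0.0498). For Timp4 the difference between TA and soleus was -0.07 ± 0.38 as deposited (95% interval -0.83 to 0.70) and -0.44 after scaling, and it was called in neither.

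Markers of other cell types moved beside these genes. Tendon cell markers (Tnmd, Scx, Mkx, Kera, Chad, Comp, Fmod and Thbs4) summed to 546 to 786 TPM in the non-cachectic and to 114 to 414 TPM in the cachectic soleus libraries, with 6 of 8 markers called lower. Tendon markers were also called lower for 2 of 7 tested in the mock-treated diaphragm and 3 of 7 in TA, where 1 was higher, although their sums overlapped there (97.4 to 269 against 82.7 to 180 TPM in diaphragm, and 44.2 to 87.7 against 64.7 to 97.8 TPM in TA, cachectic first). Of all genes, 7.54% were called lower in soleus, 2.67% in diaphragm and 3.78% in TA. The diaphragm had been freed of its tendons before RNA extraction, while for TA and soleus this was not given in the sources used here. Fibroblast markers summed to 640 to 879 TPM in non-cachectic and 240 to 672 TPM in cachectic soleus. There, 4 of 7 were called lower (Col1a1, Col1a2, Lum and Dcn), beside 7.54% of all genes. In the mock-treated diaphragm 1 of 7 was called higher (Dcn), beside 30.9% of all genes. Mmp2 and Timp2 were lowest in cachectic soleus libraries 6 and 8, which also had the lowest fibroblast sums of that group (240 and 260 TPM), and Mmp2, Timp2 and Loxl1 were highest in library 9, which had the highest fibroblast and tendon sums (672 and 414 TPM). In TA, 3 of 7 fibroblast markers were called higher, beside 56.4% of all genes, with a median fold change of 0.07 against 0.41 for all genes, and their sum was 242 to 478 TPM in the cachectic and 161 to 305 TPM in the non-cachectic libraries. Neutrophil markers summed to 7.01 to 53.8 TPM in cachectic and 1.05 to 3.81 TPM in non-cachectic TA, to 7.51 to 31.8 and 3.08 to 4.73 TPM in soleus, and to 9.60 to 57.3 and 3.07 to 21.0 TPM in the mock-treated diaphragm. Macrophage markers were called higher for 5 of 5 tested in TA, 2 of 6 in diaphragm and 1 of 6 in soleus, beside 56.4%, 30.9% and 17.5% of all genes. Of 4 endothelial markers, 2 were called higher in diaphragm and in TA (Pecam1 and Tek), with 1 lower in TA (Kdr), and 1 was called higher and 1 lower in soleus. Endothelial markers summed to 103 to 212 TPM in cachectic and 81.2 to 111 TPM in non-cachectic TA. TA library 8 was the highest cachectic TA library in Lox, Mmp2, Mmp9, Mmp14, Timp2, Timp3 and Timp4. It also had the highest neutrophil (53.8 TPM), macrophage (302 TPM), fibroblast (478 TPM) and endothelial (212 TPM) sums of its group and the lowest myofiber sum (51423 TPM). Its mesothelial markers summed to 5.55 TPM, and to at most 0.709 TPM in the other cachectic TA libraries. Myofiber markers (Acta1, Ckm, Myh1, Myh2, Myh4, Myh7, Tnnt1 and Tnnt3) did not overlap in soleus, at 68059 to 88664 TPM cachectic and 53794 to 64899 TPM non-cachectic. They summed to 37759 to 80574 against 43348 to 57760 TPM in the mock-treated diaphragm. In TA they summed to 51423 to 75162 against 65050 to 81914 TPM, cachectic first. The part of these cells and of myofibers in the results was not tested.

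In the diaphragm, rFibcd1 was compared with mock at each melanoma, which asks whether the protein alters these genes. With the cachectic melanoma 0 of 10 members were called, beside 0.0447% of all genes. Dunn tests called 0 of all genes in this comparison (7.53% had an unadjusted p under 0.05), the scaled fit called 27 in place of 6, and leaving out 1 library at a time gave between 0 (without cachectic rFibcd1 library 1) and 127 (without library 3). At an unadjusted p under 0.05 there was 1 of 10, Timp4, beside 10.5% of all genes. Timp4 ranged from 4.00 to 37.1 TPM (median 19.0 TPM) with rFibcd1 and from 14.3 to 40.7 TPM with mock, with a fold change of -0.71 ± 0.29 (adjusted p = 0.376). Timp4 with rFibcd1 fell into a lower set of 5 libraries between 4.00 and 10.7 TPM, all below the mock range, and an upper set of 5 between 27.3 and 37.1 TPM, within it. Timp1 was at 376 and 213 TPM in the cachectic rFibcd1 libraries numbered 1 and 2, and at 3.57 to 16.8 TPM in the other 8 libraries of that group, where the mock range was 6.41 to 21.8 TPM. The fold change of Timp1 was 0.78 ± 0.52 (adjusted p = 0.609). It was 0.31 without library 1, 0.40 without library 2 and -0.18 (adjusted p = 0.999) without both. Libraries 1 and 2 were also the highest of all diaphragm libraries in Lox (31.1 and 26.5 TPM) and Loxl1 (43.7 and 38.3 TPM), were among the lowest of their group in Timp4 (4.00 and 7.58 TPM), and library 1 had by far the most Mmp3 (42.8 TPM). Library 1 had the highest macrophage sum of its group (3209 TPM, range 274 to 3209 TPM), and library 2 the highest fibroblast sum (1754 TPM). The part of these cells in the values of libraries 1 and 2 was not tested.

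With the non-cachectic melanoma, rFibcd1 again gave 0 of 10 members called, beside 0.417% of all genes. Dunn tests called 0 members and 14 of all genes in place of 56, and leaving out 1 library at a time gave 31 to 169 of all genes (without non-cachectic mock library 64 and cachectic rFibcd1 library 11). Unadjusted p was under 0.05 for 4 members: Lox, Mmp14, Loxl1 and Timp3, beside 17.4% of all genes. Lox ranged from 5.43 to 8.27 TPM (median 6.55 TPM) with rFibcd1 and from 1.70 to 3.89 TPM (median 3.17 TPM) with mock, groups that did not overlap (as for 0.395% of all genes, higher with rFibcd1), and the fold change was 0.92 ± 0.25 (adjusted p = 0.0929). The adjusted p of Lox lay on either side of the threshold with the setting: it was 0.0473 with a pseudocount of 0.1, 0.0171 without the cachectic rFibcd1 libraries 1 and 2, 9.1e-05 in a fit of the 2 groups alone, where Mmp14 and Loxl1 were called too and the calls over all genes rose from 56 to 2453, and 0.0447 and 0.0362 without cachectic rFibcd1 library 1 or 11, but 0.129 after median-ratio scaling, 0.145 with no filter on low values and 0.221 with the Pcna-ps2 state as a term. Mmp14 ranged from 10.2 to 30.5 TPM (median 15.5 TPM) with rFibcd1, and 9 of 10 libraries were above the mock range of 6.35 to 13.6 TPM, with a fold change of 0.75 ± 0.23 (adjusted p = 0.178). Loxl1 ranged from 22.9 to 33.5 TPM (median 26.6 TPM) against 12.2 to 24.0 TPM, with a fold change of 0.57 ± 0.21 (adjusted p = 0.238). Timp3 had a fold change of -0.32 ± 0.16 (adjusted p = 0.285). Marker sums had higher medians with rFibcd1 than with mock, in ranges that overlapped. The medians were 1181 and 1012 TPM for fibroblast, 663 and 504 TPM for macrophage and 163 and 74.4 TPM for adipocyte markers. They were 212 and 184 TPM for endothelial and 133 and 99.1 TPM for mesothelial markers. Of 7 fibroblast markers 0 were called. The part of these cells in the values was not tested.

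**Figure D5:**
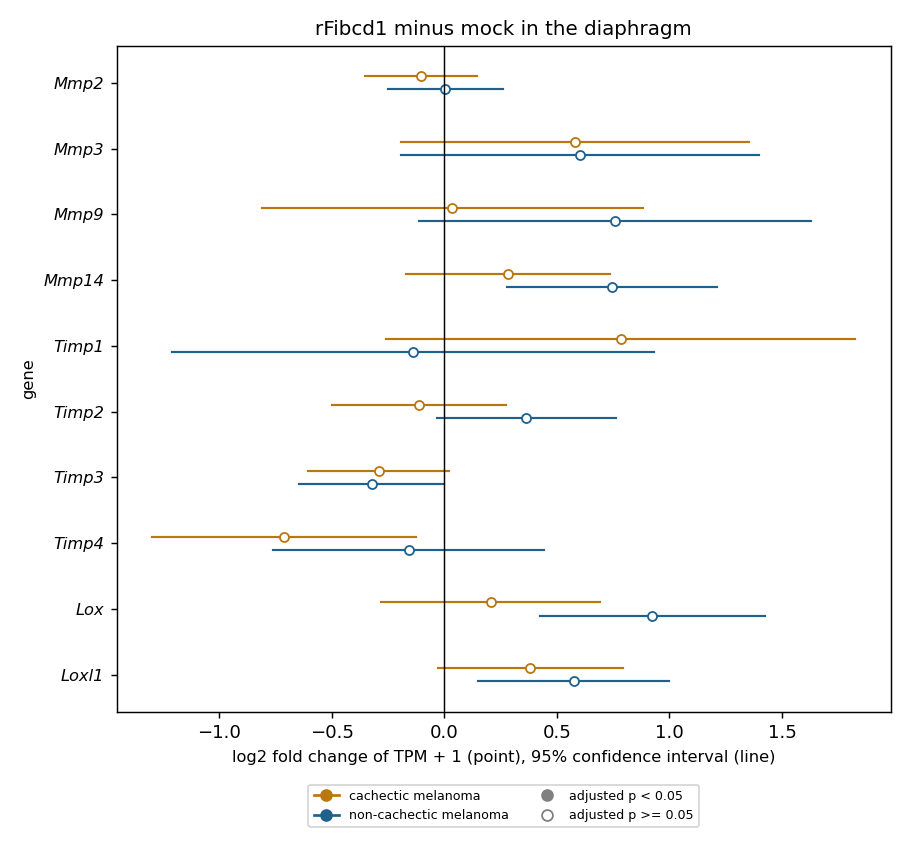
Log2 fold change of TPM + 1, rFibcd1 minus mock (horizontal axis), for each gene (vertical axis) in the diaphragm with the cachectic and the non-cachectic melanoma. Points are limma estimates and lines their 95% confidence intervals; all points are open because no adjusted p is under 0.05. The largest values are 0.92 for Lox with the non-cachectic melanoma and 0.78 for Timp1 with the cachectic melanoma, the latter resting on libraries 1 and 2.

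Between the melanomas under rFibcd1, 0 of 10 members passed the test, beside 9.11% of all genes. These 1223 genes became 335 in a fit of the 2 groups alone and 0 with Dunn tests (18.7% at an unadjusted p under 0.05), and 733 to 1896 on leaving out 1 library (cachectic rFibcd1 library 5 and non-cachectic rFibcd1 library 56). The fold changes were 1.44 ± 0.52 for Timp1 (adjusted p = 0.0700), 1.09 ± 0.38 for Mmp3 (adjusted p = 0.0648), 0.81 ± 0.29 for Timp4 (adjusted p = 0.0692) and 0.69 ± 0.24 for Lox (adjusted p = 0.0627), and 5 members had an unadjusted p under 0.05, the fifth being Timp3 (0.40 ± 0.15), beside 25% of all genes. The value of Timp1 rested on libraries 1 and 2, being 0.96 without library 1, 1.05 without library 2 and 0.47 (adjusted p = 0.332) without both. Without the 2 cachectic rFibcd1 libraries of high Timp1, Timp4 was called (1.14, adjusted p = 0.00591), in place of no member, beside 9.67% of all genes. These libraries were chosen after their values were seen and were among the lowest of their group in Timp4. Leaving them out raises Timp4 by construction, so that no conclusion is drawn from this call. Leaving out 1 library at a time called up to 3 of these 5 genes, for cachectic rFibcd1 libraries 1, 2, 11, 14, 16, 17 and 18, cachectic mock library 20 and non-cachectic rFibcd1 libraries 56 and 60 (adjusted p 0.0171 to 0.0494). The mock and the rFibcd1 comparison use different libraries but share an estimate of the spread. Set side by side, the fold change between melanomas was 1.36 with mock and 0.81 with rFibcd1 for Timp4, and 1.41 and 0.69 for Lox. The difference of these effects was tested directly and was called for 0 of 10 members, beside 0.0223% of all genes. It was -0.72 ± 0.34 for Lox (unadjusted p = 0.0431, adjusted p = 0.564), -0.55 ± 0.41 for Timp4 (adjusted p = 0.702) and 0.92 ± 0.74 for Timp1 (adjusted p = 0.717). An unadjusted p under 0.05 was found for 8.79% of all genes there. The difference of Timp1 was 0.45 without cachectic rFibcd1 library 1, 0.54 without library 2 and -0.04 without both.

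The 10 genes did not all vary together between diaphragm libraries. Pearson correlations of the residuals (log2(TPM + 1) minus the group mean, over 39 libraries of 1 muscle, whose cell markers and Pcna-ps2 state vary from library to library) describe which members moved together. Mmp14 followed Lox (r = 0.78), Mmp9 followed Timp2 (0.81), Timp1 followed Lox (0.66) and Timp2 followed Loxl1 (0.60). Timp4 ran against Loxl1 (-0.66) and Timp1 (-0.36). The SD of Timp1 on the log2 scale was 2.15 in the cachectic rFibcd1 group, where libraries 1 and 2 lay far above the rest. It was 0.465 to 0.642 in the other diaphragm groups. Correlations of Timp1 with any gene thus give these 2 libraries great weight, and they were not computed without them. Outside the 10 genes, the residuals most like those of Loxl1 were Col3a1, Col1a1 and Col1a2 (0.93, 0.92 and 0.91), 3 genes of fibrillar collagens. Those most like Timp1 were Saa3, Lilr4b and Il13ra1 (0.73, 0.72 and 0.71), of which Saa3 encodes an acute-phase protein. Those most like Timp4 were Aqp1, Adgrg1 and Map3k6 (0.84, 0.82 and 0.81), Aqp1 being a water channel of capillary endothelium. Mmp2 was most like Cilp, Eln and Smoc2 (0.76, 0.73 and 0.72), Lox most like B4galt1, Fnbp1l and Rhoj (0.83, 0.79 and 0.78), and Mmp3 most like Hbegf, Emilin1 and Ankrd1 (0.70, 0.66 and 0.65). Mmp9, Mmp14, Timp2 and Timp3 had their closest partners in Ppm1m (0.90), Unc50 (0.85), Ildr2 (0.95) and Clca3a1 (0.83).

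Other genes of the same pathways were counted from lists of related proteases, inhibitors, cross-linking enzymes and substrates. These counts stand beside 30.9%, 56.4% and 17.5% of all genes called higher and 2.67%, 3.78% and 7.54% called lower in diaphragm, TA and soleus. Among 16 collagen processing and cross-linking genes, 3 of 15 tested were higher and 0 lower in the mock-treated cachectic diaphragm, 9 of 14 higher and 0 lower in TA, and 1 of 13 higher and 4 lower in soleus. After median-ratio scaling these counts were 1 higher and 1 lower, 3 and 2, and 1 and 6. The gene that was higher in all 3 muscles was Tgm2, the tissue transglutaminase, which cross-links matrix proteins by another chemistry than Lox, with fold changes of 0.95 ± 0.13 in diaphragm, 2.38 ± 0.23 in TA and 1.08 ± 0.15 in soleus. Loxl2, a further lysyl oxidase, fell in soleus (-1.11 ± 0.26), as did Fkbp10 (-0.82 ± 0.16). Of 16 ADAM and ADAMTS proteases, 3 of 16 tested were higher in the diaphragm, 7 of 12 in TA and 2 of 13 in soleus, with 0 lower in each as deposited (2 and 0, 2 and 1, and 2 and 1 higher and lower after scaling), and Adam15 was among them in every muscle (0.62 ± 0.10, 1.22 ± 0.20 and 0.50 ± 0.13). Adamts15 was higher in diaphragm (1.33 ± 0.23) and TA (0.84 ± 0.22). Medians of this list were 0.28, 0.49 and -0.03, near those of all genes in diaphragm and TA (0.20 and 0.41).

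Of 14 other metalloproteinases, only 6, 4 and 5 were expressed enough to be tested in diaphragm, TA and soleus. The membrane-type Mmp15 was lower in cachectic diaphragm (-0.54 ± 0.18) and soleus (-0.60 ± 0.12), and Mmp11 was higher in diaphragm (0.49 ± 0.11) and TA (0.67 ± 0.26), though in neither after scaling. The list counts were 2 higher and 1 lower, 3 and 0, and 0 and 2, and after scaling 0 and 1, 2 and 1, and 0 and 2. Of 9 genes of the plasminogen activator system and other inhibitors, Plau, the urokinase that generates plasmin, was lower in diaphragm (-0.83 ± 0.15) and soleus (-1.35 ± 0.17), and Serping1, the C1 inhibitor, was higher in diaphragm (0.89 ± 0.16) and TA (1.75 ± 0.20). The list counts were 2 higher and 2 lower of 8 in diaphragm, 2 and 0 of 6 in TA, and 0 and 3 of 8 in soleus, and after scaling 1 and 3, 1 and 2, and 0 and 4. Of 10 elastic fiber and fibronectin genes, 3 were higher and 1 lower in diaphragm, 5 and 1 in TA, and 0 and 2 in soleus, and after scaling 2 and 1, 3 and 2, and 0 and 2. Mfap4, a microfibril-associated protein, was lower in all 3 muscles (-1.55 ± 0.39, -0.50 ± 0.19 and -1.62 ± 0.40). Of the TGF-beta pathway genes, 4 of 11 tested were higher in diaphragm, 4 of 10 in TA and 0 of 10 in soleus, with 0, 0 and 1 lower (2, 3 and 0 higher and 0, 1 and 3 lower after scaling), and the receptor gene Tgfbr2 led in diaphragm (0.86 ± 0.14) and TA (1.12 ± 0.22).

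As deposited, the only gene on these 6 lists that was called for rFibcd1 was Eln, the elastin precursor and a substrate of Lox. In the non-cachectic diaphragm it averaged 32.9 TPM with rFibcd1 and 14.3 TPM with mock, a fold change of 1.13 ± 0.20 (adjusted p = 0.00161) that was also called after scaling. With the cachectic melanoma, 0 genes of the 6 lists were called for rFibcd1 as deposited, and after scaling Adamts9 was (0.59, adjusted p = 0.0494; 0.61 ± 0.15 with adjusted p = 0.131 as deposited), a gene named after its values were seen.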

How the data were processed

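RNA was sequenced from 59 muscle samples, with 1 deposited table. The authors trimmed and filtered the reads, mapped them to the mouse genome mm10 (GRCm38) with CLC Genomics Workbench and deposited TPM per gene symbol, normalized to length and library total, so depth and counting error are unknown. The gene annotation they used is not given in the sources used here. Columns were matched to groups by name. The column numbers are not the replicate numbers of the labels. Over the 10 numbers that recur in 3 muscles, same-numbered libraries deviated together from their group means with r over 0.1 in 27 of 30 pairs (0.0017 to 0.592 across genes), and in all pairs of diaphragm with TA and of TA with soleus. In 25 of 30 pairs a library was most like its own number. This check was made after the fits were seen and is a hint from the data, not the design.

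TPM were analysed as log2(TPM + 1) with limma 3.58.1 (R 4.3.3; linear model with trended empirical Bayes), tested on simulated data first. Genes at 1 TPM or more in as many samples as the smallest group of a fit were kept: 13426 in the diaphragm fit (4 groups), 11105 in TA, 11957 in soleus and 13501 in the fit of the 6 groups without rFibcd1. Tests were two-sided, and p-values were adjusted over all genes by the Benjamini-Hochberg method in each of 13 comparisons. In median-ratio scaling, each library was divided by its median ratio to the geometric mean over genes. P-values measure only the spread between these samples. The other alternatives were a pseudocount of 0.1, no filter, Dunn tests, fits of 2 groups, the Pcna-ps2 state or the column number as a term, and leaving out libraries. The study used Dunn tests too, but with a cutoff on the p-value and the fold change, and it names no adjustment over genes. Its legends also give fewer cachectic diaphragm samples than the table holds. The Dunn tests here were adjusted over all genes and are not a repeat of its test. The column number and leaving out cachectic rFibcd1 libraries 1 and 2 together were chosen after the data were seen.

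The 10 genes, the pathway and marker lists and the motifs were chosen with earlier results of these data known. All 10 genes were named in every comparison, and from each list up to 3 called genes of the largest fold change, with their values in other muscles. Co-varying genes were the 3 of highest residual correlation among genes averaging 5 TPM or more. Promoters came from the RefSeq table and gene positions from GENCODE vM21, both on GRCm38. Figures were drawn with matplotlib 3.10.9.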

Additional observations from a re-analysis of the deposited data

Results flagged for a closer look

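Among 80 groups of 1 gene in 1 muscle and condition, 8 held a library far from the others by Dixon's criterion on the log2(TPM + 1) scale, and chance flags about 1 in 20 groups. Cachectic TA library 8 stood apart in 3 genes: Lox at 38.9 TPM (next 12.4 TPM), Mmp14 at 17.6 TPM (next 5.86 TPM) and Mmp9 at 1.51 TPM (next 0.825 TPM). Its neutrophil, macrophage and fibroblast marker sums were also the highest of its group, and their part in these values was not tested. In cachectic soleus, Timp4 was at 41.3 TPM in library 8 (next 24.5 TPM), Lox was at 2.93 TPM in library 6 (next 11.3 TPM) and Loxl1 was at 16.1 TPM in library 9 (next 7.61 TPM). In non-cachectic TA, Mmp3 was at 0.431 TPM in library 64 (next 0.126 TPM) and Loxl1 was at 2.66 TPM in library 63 (next 3.53 TPM).

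The signed melanoma effect differed between TA and soleus by the test of the difference itself (TA minus soleus, log2 scale) for Lox (1.85), Timp1 (1.48), Mmp2 (1.38) and Timp2 (0.93). As deposited, the effects in TA and soleus were 0.58 and -0.80 for Mmp2, and 0.45 and -0.48 for Timp2, of which the last was not called. After median-ratio scaling they were 0.10 and -0.90 for Mmp2, and -0.04 and -0.57 for Timp2, so that Timp2 then had the same sign in both muscles, and neither gene was called in TA. After median-ratio scaling the differences of Timp1 and Timp2 were not called (adjusted p = 0.0801 and 0.17).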

How the results depend on the processing

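With the column number as a replicate block, an alternative added after the data were seen, 4 members were called for the difference of the melanoma effects of diaphragm and TA in place of 0 (2193 of all genes in place of 681), and 6 for the levels of non-cachectic diaphragm against soleus in place of 3 (6487 of all genes in place of 5243). Median-ratio scaling gave 2 members in the mock-treated diaphragm in place of 4, 4 in TA in place of 7, 2 in the difference of the melanoma effects of TA and soleus in place of 4 and 5 for the levels of diaphragm against soleus in place of 3, and Timp2 in TA changed sign (-0.0425 on the log2 scale). Over all genes, in the same order, it gave 2118 in place of 4501, 4473 in place of 6680, 1557 in place of 2750 and 6336 in place of 5243. A pseudocount of 0.1 gave 1 member for rFibcd1 in the non-cachectic diaphragm and 1 for the effects of diaphragm and TA (Lox in each), in place of 0. Over all genes the calls stayed at 56 in the first and rose from 681 to 983 in the second. A fit of 2 groups gave 3 members for rFibcd1 with the non-cachectic melanoma, and 2453 of all genes in place of 56. Without cachectic rFibcd1 libraries 1 and 2, 1 member was called in that comparison and 1 between melanomas under rFibcd1. Over all genes this gave 60 in place of 56 and 1299 in place of 1223, and the 2 libraries were chosen after their values were seen. Dunn tests gave 1 member in soleus in place of 2 (Mmp2 lost) and 5 in TA in place of 7 (Mmp2 and Timp2 lost). Over all genes they gave 2394 in soleus in place of 2999, and 7342 in TA in place of 6680. Leaving out 1 library at a time gave 2 to 5 members in the mock-treated and 0 to 3 in the rFibcd1-treated diaphragm, 0 to 0 and 0 to 1 for rFibcd1 with the cachectic and the non-cachectic melanoma, 0 to 0 for their difference, 5 to 7 in TA, 1 to 5 in soleus, 0 to 1, 0 to 2 and 2 to 5 for the differences of diaphragm and TA, diaphragm and soleus, and TA and soleus, and 7 to 9, 3 to 4 and 7 to 7 between these muscles. Over all genes, in the same order, this gave 3625 to 5550 and 733 to 1896 between melanomas in the diaphragm. It gave 0 to 127 and 31 to 169 for rFibcd1, 0 to 4 for the difference, 5097 to 7471 in TA and 2131 to 3844 in soleus. The differences of muscles had 323 to 1598, 212 to 624 and 1617 to 3981. The levels had 9336 to 10343, 4434 to 6188 and 8901 to 9826. Of 127 fold changes, scaling changed 12 calls, no filter 4 and a pseudocount of 0.1 4. The cause of these changes was not tested. With TPM alone, depth is unknown, and changes of Mmp3 and Mmp9 near 1 TPM are understated on the log2(TPM + 1) scale.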
